A study of Mus musculus with 8 samples.

Results

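The dystrophin complex and membrane repair genes examined here are Dmd, Utrn, Dag1, Sgca, Sgcb, Sgcd, Sgce, Sspn and Dysf. They were taken by gene symbol, and all 9 were found in both deposited tables, which list 52139 genes (GBC) and 52338 genes (Re). RNA was sequenced from C2C12, by the labels an immortalized mouse myoblast line of wild type genotype. In the first table a library of cells given GBC, ginseng berries concentrate, stands against another given DMSO, the solvent, with 1 library per group. In the second, 3 libraries of cells given ginsenoside Re, a saponin of ginseng, stand against 3 libraries given DMSO. Dose, treatment time and culture stage are not given in the labels, whose cell type is myoblast, while the series text speaks of myocytes. Values are in TPM, a level per transcript length that can be compared between genes of a library, and differences are on the log2(TPM + 1) scale of the deposited files. The deposited values of a library did not add up to a common total: they summed to 704657 to 743269 TPM in Re libraries and 642180 to 716589 TPM in their DMSO libraries, and to 479938 TPM in the GBC library and 403442 TPM in its DMSO library. Differences are therefore also given after median-of-ratios scaling. TPM keeps no read depth, so the counting error behind a value is unknown and the replicate spread is the only error given. Nothing in the labels says that the 3 libraries of a group came from separate cultures, so p-values measure only the spread between these libraries.

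Dystrophin is a long rod-like protein that ties cortical actin to the muscle cell membrane. There it binds beta-dystroglycan, whose extracellular partner alpha-dystroglycan binds laminin. Sarcoglycans and sarcospan are membrane proteins that steady this axis, and utrophin, the autosomal homologue of dystrophin, takes its place in many other cell types and in developing muscle. Dysferlin is a calcium-binding ferlin that acts when a torn muscle membrane is resealed. Loss of some of these proteins causes muscular dystrophies, and the complex is built up mainly as myoblasts turn into myotubes.

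The libraries differed in how far they matched their label. Among Re libraries and their DMSO libraries, 5 of 7 myoblast markers were at 1 TPM or more in each library, and the marker list summed to 197.6 to 209.2 TPM in Re libraries and 196.9 to 217.0 TPM in DMSO libraries. In the GBC table Des alone of the 7 was at that level, the list summed to 1.65 TPM in the GBC library and 1.97 TPM in the DMSO library, and Myod1, Myf5 and Cdh15 were listed at 0 in both. Markers of myotubes, 8 genes, summed to 24.64 to 26.97 TPM in Re libraries and 25.2 to 36.2 TPM in their DMSO libraries, and to 0.27 and 0.09 TPM in the GBC library and its DMSO library. The GBC and DMSO libraries of that pair are therefore called by their labels here, without the cell type. Markers of fibroblasts and mesenchymal cells, 8 genes, summed to 179.7 TPM in the GBC library and 113.8 TPM in the DMSO library of the pair. In the Re table that list summed to 278.4 to 319.2 TPM in Re libraries and 221.0 to 316.4 TPM in DMSO libraries. The single genes of that list went different ways. Col3a1, a fibrillar collagen, was at 39.32 TPM in the GBC library and 19.77 TPM in its DMSO library, and at 177.8 to 271.18 TPM in the 6 libraries of the Re table. Thy1, a surface protein of fibroblasts, was at 22.11 TPM in the GBC library and 23.75 TPM in its DMSO library, and at 0 to 0.08 TPM in the 6 libraries of the Re table. Each table may carry its own normalisation, so levels are set across them only as descriptions. In bulk RNA fewer cells of a type and less RNA per cell cannot be told apart.

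Levels in the Re table spanned from Dag1 at the top to Dmd at the bottom. Over its 6 libraries Dag1, which encodes both dystroglycans, ran from 29.57 to 34.22 TPM and lay above 72.0% to 75.0% of the genes at 1 TPM or more in each library. Utrn, at 14.05 to 24.54 TPM, and Sgce, at 12.76 to 19.22 TPM, came next with overlapping ranges. Sgcb, at 6.86 to 9.97 TPM, overlapped Sspn, at 5.52 to 7.30 TPM. Sgcd, at 4.42 to 5.23 TPM, lay below every Sspn value, and Dysf, at 1.95 to 3.96 TPM, lay below every Sgcd value. Sgca, at 0.27 to 1.10 TPM, and Dmd, at 0 to 0.25 TPM, were the lowest, and they did not pass the filter of a mean of 1 TPM that the other 7 passed. The plot of levels in all libraries shows this order and the gap between the tables.

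**Figure D1:**
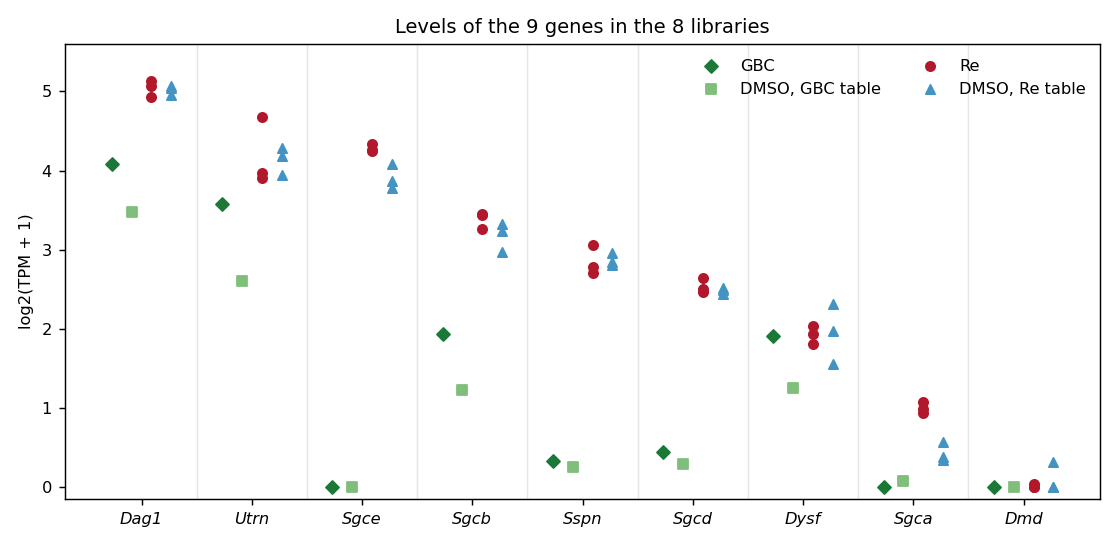
The plot gives log2(TPM + 1) of the 9 genes (horizontal axis, ordered by their mean in the Re table) in each of the 8 libraries, 1 point per library, with GBC and its DMSO library at the left of each gene and the Re and DMSO libraries of the other table at the right. Dag1, Utrn, Sgcb and Dysf have values at 1 TPM or more in both tables, Sgce, Sspn and Sgcd only in the Re table, and Dmd is at or near 0 throughout.

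RefSeq promoter windows, 250 bases before to 50 after an annotated start on GRCm38.p6, matched 8 of the 9 genes. Shown are the first listed windows of Dmd, Utrn and Sgca. Dmd was almost undetected, and its homologue Utrn was well above it in every library of the Re table. Sgca had the largest relative difference between Re and DMSO libraries among the members tested. Capitals mark CANNTG, the E-box core that MyoD-type factors can bind, which reads the same on both strands. The Dmd window is chrX:82948620-82948919 (+), the Utrn window chr10:12861686-12861985 (-) and the Sgca window chr11:94976278-94976577 (-).
Dmd: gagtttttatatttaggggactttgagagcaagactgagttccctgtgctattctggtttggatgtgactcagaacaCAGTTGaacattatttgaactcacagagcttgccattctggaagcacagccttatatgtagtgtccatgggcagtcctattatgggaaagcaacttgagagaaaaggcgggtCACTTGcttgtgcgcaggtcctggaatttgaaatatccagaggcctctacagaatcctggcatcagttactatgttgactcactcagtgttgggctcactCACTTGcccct
Utrn: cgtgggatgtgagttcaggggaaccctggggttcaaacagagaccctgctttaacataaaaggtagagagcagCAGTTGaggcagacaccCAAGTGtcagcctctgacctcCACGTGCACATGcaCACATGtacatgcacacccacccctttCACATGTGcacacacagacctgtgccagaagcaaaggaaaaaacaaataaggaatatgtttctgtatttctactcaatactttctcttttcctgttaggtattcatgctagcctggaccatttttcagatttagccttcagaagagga
Sgca: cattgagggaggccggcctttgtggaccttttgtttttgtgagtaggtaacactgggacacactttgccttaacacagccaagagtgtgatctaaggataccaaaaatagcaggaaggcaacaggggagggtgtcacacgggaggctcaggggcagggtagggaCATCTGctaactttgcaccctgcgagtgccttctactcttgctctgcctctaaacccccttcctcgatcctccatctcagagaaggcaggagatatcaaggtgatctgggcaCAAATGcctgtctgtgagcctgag
The Dmd window holds 3 E-box matches, the Utrn window 7, some of them overlapping each other, and the Sgca window 2. E-box matches are common, with at least 1 in 72.3% of 32851 windows of that length. The 3 windows hold 2, 2 and 4 CpG dinucleotides, against a median of 7 over all windows, and none has a match to GGGCGG, the GC box, on either strand, which 35.7% of all windows have. A second listed window of Dmd holds no E-box match, 3 GC boxes and 14 CpG. Both listed windows of Dag1 hold GC boxes, 3 and 4 matches, with 30 and 47 CpG. Which start site was used in these cells cannot be read from gene-level values.

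Of the linkers to the cytoskeleton, Dmd was listed at 0, 0 and 0.03 TPM in the Re libraries and at 0.25, 0 and 0 TPM in the DMSO libraries of the same table. It was listed at 0 in both libraries of the GBC table. Only 2 of 8 libraries thus listed any Dmd, and no difference was tested. Utrn was at 14.68, 14.05 and 24.54 TPM in Re libraries, and at 17.16, 14.39 and 18.49 TPM in DMSO libraries. Re replicate 3 was the highest and the other 2 Re libraries were near the lowest, so the groups overlapped. The difference was 0.05 (95% confidence interval -0.43 to 0.53, adjusted p = 0.938 in limma), and it was -0.20 without Re replicate 3 and -0.06 after median-of-ratios scaling. In that library Utrn stood 0.51 above its mean over the 6 libraries on the log2 scale. Genes with long transcripts were also high there: those over 8000 bases of exon stood 0.161 above their mean at the median, against 0.06 for genes under 2000 bases, and the Utrn exons span 17108 bases in all. The part of this in the Utrn value was not tested.

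Dag1 levels lay close together. Its mRNA was at 29.57, 32.42 and 34.22 TPM in Re libraries and at 32.01, 30.15 and 32.46 TPM in DMSO libraries, which overlap. Its difference of 0.02 had a 95% confidence interval of -0.19 to 0.24, the narrowest of the 7 genes tested, with an adjusted p of 0.939 in limma. After scaling the difference was -0.09.

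Sgca and Sgce gave the largest differences between Re and DMSO among the members tested, though neither passed the test. Sgce, the broadly expressed epsilon-sarcoglycan, which is imprinted in mouse, was at 17.95, 18.09 and 19.22 TPM in Re libraries and at 15.98, 13.64 and 12.76 TPM in DMSO libraries. The lowest Re value was above the highest DMSO value, so the groups did not overlap. Mean levels were 18.4 ± 0.696 TPM in Re and 14.1 ± 1.66 TPM in DMSO (SD, n = 3). The difference was 0.37 (95% confidence interval 0.11 to 0.62), which in limma gave an unadjusted p of 0.0108 and an adjusted p of 0.687. After scaling the difference was 0.26 and the groups still did not overlap.

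Sgca, the alpha-sarcoglycan of striated muscle, is the closest relative of Sgce. It was at 0.98, 0.91 and 1.10 TPM in Re libraries and at 0.49, 0.30 and 0.27 TPM in DMSO libraries. These groups did not overlap either, and the mean TPM in Re was 2.82 times that in DMSO, with means of 0.997 ± 0.0961 TPM in Re and 0.353 ± 0.119 TPM in DMSO (SD, n = 3). Its mean of 0.675 TPM over 6 libraries is under the filter of 1 TPM. With the filter at 0.1 TPM the difference was 0.56 (95% confidence interval 0.24 to 0.89), with an unadjusted p of 0.00414 and an adjusted p of 0.743 over 17171 genes in limma, where 0% of genes were called and 5.71% had an unadjusted p under 0.05. It was 0.52 after scaling, 0.52 to 0.63 with any 1 library left out, and 1.30 with a pseudocount of 0.1, since the pseudocount weighs heavily at such levels. A level under 1 TPM of a gene with 1735 bases of exon may rest on few reads.

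The ratio of Sgce to Sgca within a library does not depend on how that library was scaled. It was 18.3, 19.9 and 17.5 in Re libraries and 32.6, 45.5 and 47.3 in DMSO libraries. Each Re ratio lay below each DMSO ratio, a difference of -1.15 on the log2 scale (exact permutation test, two-sided, p = 0.1, the smallest that 3 against 3 libraries allow). With 1 TPM added to both genes, which weighs most on Sgca, the difference was -0.20. The planned ratio of Utrn to Dmd could not be formed, because Dmd was listed at 0 in 4 of the 6 libraries.

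Sgcb and Sgcd encode beta- and delta-sarcoglycan, which form the core of the sarcoglycan complex. Sgcb was at 9.97, 9.81 and 8.61 TPM in Re libraries and at 8.98, 6.86 and 8.46 TPM in DMSO libraries. The 2 highest values were in Re and the lowest in DMSO replicate 2, but the groups overlapped. Its difference was 0.21 (95% confidence interval -0.10 to 0.51, adjusted p = 0.687 in limma), or 0.10 without DMSO replicate 2 and 0.11 after scaling. Sgcd was at 4.66, 4.52 and 5.23 TPM in Re libraries and at 4.63, 4.42 and 4.73 TPM in DMSO libraries. All 6 values lay close together, with a difference of 0.05 (-0.23 to 0.34, adjusted p = 0.888 in limma) that was -0.04 after scaling. The ratio of Sgcb to Sgcd was 2.14, 2.17 and 1.65 in Re libraries and 1.94, 1.55 and 1.79 in DMSO libraries (exact permutation test, two-sided, p = 0.3).

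**Figure D2:**
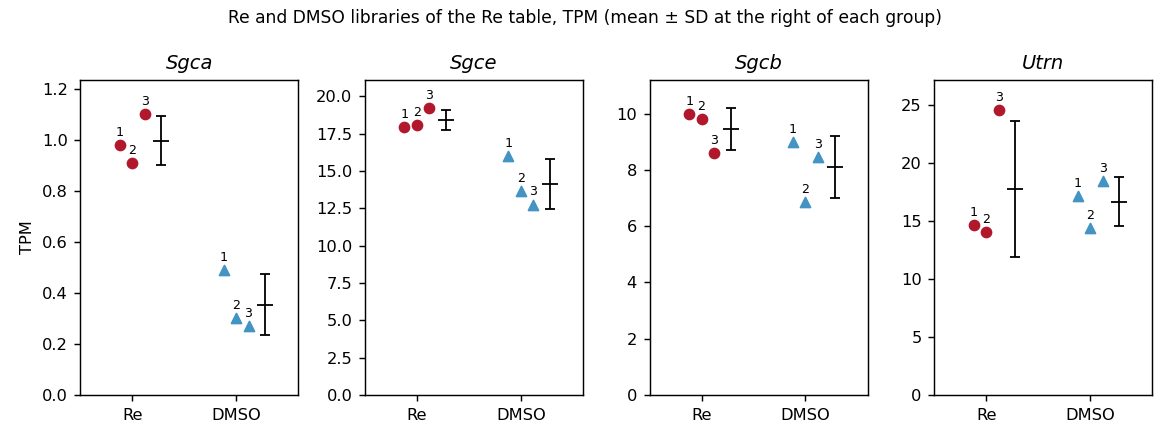
TPM (vertical axes, starting at 0 and scaled per gene) of Sgca, Sgce, Sgcb and Utrn in the 3 Re and 3 DMSO libraries of the Re table, numbered by replicate, with the mean and SD of each group as a bar at its right. The groups are apart for Sgca and Sgce and overlap for Sgcb and Utrn, where Re replicate 3 stands at 24.54 TPM.

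Sspn encodes sarcospan, a small membrane protein that binds the sarcoglycans. It was at 5.52, 5.90 and 7.30 TPM in Re libraries and at 5.99, 6.18 and 6.76 TPM in DMSO libraries, so that Re held both the lowest and the highest value. The difference was -0.02 (95% confidence interval -0.33 to 0.29, adjusted p = 0.961 in limma). Dysf, the dysferlin gene, was at 2.51, 2.83 and 3.09 TPM in Re libraries and at 3.96, 1.95 and 2.94 TPM in DMSO libraries. All 3 Re values fell inside the DMSO range, and the DMSO libraries themselves lay 0.75 apart on the log2 scale. The difference of -0.02 had an interval of -0.51 to 0.46 and an adjusted p of 0.972 in limma. It was 0.16 without DMSO replicate 1 and -0.22 without DMSO replicate 2, so the level of Dysf in DMSO rests on which library is read. Exons of Sspn share 69 bases with the antisense gene Sspnos, and those of Dysf share 352 and 105 bases with the antisense genes Gm15475 and Gm33024. Counting by strand is not stated in the sources used here, so reads within these shared bases cannot be told apart. The shared bases are a small part of the exons, which span 4996 bases for Sspn and 8328 for Dysf.

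In all, 0 of the 7 genes that passed the filter were called between Re and DMSO at an adjusted p under 0.05, where 0% of 11967 genes were. Without the trend and with robust variances, limma called 0 of them too. At an unadjusted p under 0.05 there was 1, Sgce, where 6.23% of all genes reached it. Of the 7, Sgce alone had groups that did not overlap, against 15% of all genes tested, 13.7% with Re higher and 1.27% with Re lower. With the filter at 0.1 TPM there were 2 of 8, Sgce and Sgca, against 12.9% of all genes, 11.3% with Re higher and 1.6% with Re lower, and after scaling they were still 2 of 8, against 9.57%. Counts this small do not set these genes apart from the background. After median-of-ratios scaling, 10.2% of all genes did not overlap, 5.28% higher and 4.87% lower, and Sgce was still the 1 of 7. As deposited 5 of the 7 were higher in Re and 2 lower, with a median difference of 0.049, against 0.105 over all genes, of which 77.5% were higher. After scaling that median was -0.059, against 0.001 over all genes, and 2 of the 7, Sgce and Sgcb, were above 0, where 50.3% of all genes were. A p that misses the threshold does not show equal levels: the intervals of the 7 genes reach from 0.21 to 0.48 to either side of the difference.

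**Figure D3:**
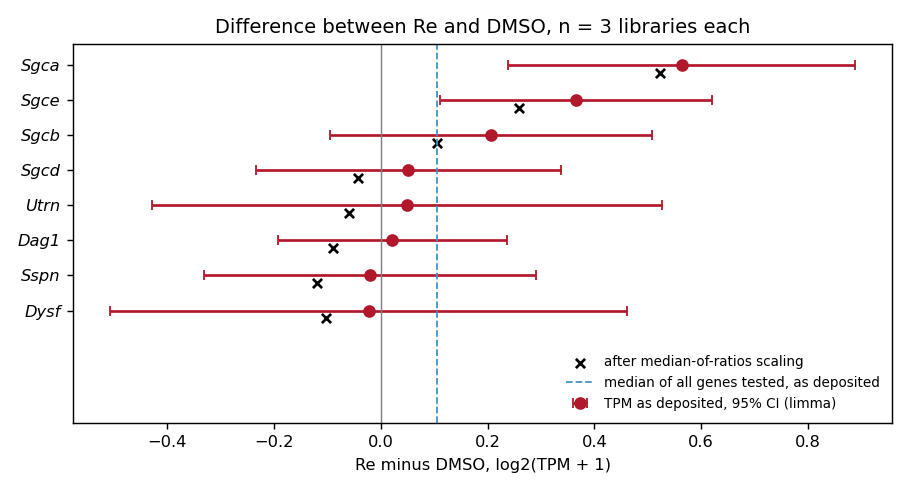
Re minus DMSO on the log2(TPM + 1) scale (horizontal axis) for the 7 genes tested and for Sgca, which was tested with the filter at 0.1 TPM; points are the differences with 95% confidence intervals from limma (n = 3 libraries per group), crosses the differences after median-of-ratios scaling, and the dashed line the median of all genes tested, 0.105. The intervals of Sgca and Sgce lie above 0, those of the other 6 genes include it, and scaling moves Utrn, Dag1 and Sgcd below 0.

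The genes that work beside this complex gave no call either, with 0 past the threshold in each of the 5 lists. These lists hold the rest of the dystrophin complex, the enzymes that glycosylate alpha-dystroglycan, laminins and other ligands with the laminin receptor integrin, partners in membrane repair, and large cytoskeletal linkers. Of the rest of the complex 4 of 12 genes passed the filter, 3 higher and 1 lower in Re, with a median difference of 0.131. Dtnb, which encodes beta-dystrobrevin, a cytoplasmic relative of dystrophin, was at 6.98 ± 1.01 TPM in Re and 4.99 ± 1.10 TPM in DMSO (SD, n = 3), a difference of 0.42 with overlapping groups and an adjusted p of 0.687 in limma. Sntb2, a syntrophin adaptor, differed by 0.16, or 0.08 without DMSO replicate 2. Among other genes, caveolin-3 (Cav3), a muscle-restricted membrane protein, ran from 0 to 0.13 TPM over the 6 libraries, and Sgcz was listed at 0 in all 8.

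Glycosylation enzymes had 16 of 18 genes past the filter, 12 higher and 4 lower, with a median of 0.077, against 77.5% higher and a median of 0.105 over all genes. The groups did not overlap in 3 with Re higher and 1 with Re lower, against 13.7% and 1.27% of all genes, and in 1 and 1 after scaling, against 5.28% and 4.87%. Dpm1, the catalytic subunit of the synthase of dolichol-phosphate mannose, the mannose donor, was at 18.2 ± 4.53 TPM in Re and 9.38 ± 2.52 TPM in DMSO (SD, n = 3). Its difference of 0.89 (95% confidence interval 0.38 to 1.39) had an unadjusted p of 0.0037 and an adjusted p of 0.687 in limma, and its groups did not overlap. Pomgnt1, which extends O-mannose glycans, was at 32.2 ± 0.491 TPM in Re and 27.1 ± 3.90 TPM in DMSO (SD, n = 3), a difference of 0.25.

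Ligands and integrin had 10 of 12 genes past the filter, 7 higher and 3 lower, with a median of 0.087. Agrn, which encodes agrin, and Lamb2, a laminin chain, differed by 0.20 and 0.24, and Lamb2 by 0.11 without DMSO replicate 2. Lama2, the laminin chain of the muscle basement membrane, was at 1.72 ± 0.248 TPM in Re and 1.44 ± 0.378 TPM in DMSO, and Itga7, the muscle laminin receptor, at 33.7 ± 0.988 TPM in Re and 31.6 ± 3.27 TPM in DMSO (SD, n = 3). Repair partners had 23 of 29 genes past the filter, 21 higher and 2 lower, with a median of 0.111. Among these 23 the groups did not overlap in 3 with Re higher and 0 with Re lower, against 13.7% and 1.27% of all genes. After scaling the counts were 0 and 3, against 5.28% and 4.87%. S100a10, the partner of annexin A2, was at 537.9 ± 20.3 TPM in Re and 463.8 ± 16.5 TPM in DMSO (SD, n = 3), a difference of 0.21 (adjusted p = 0.687 in limma). Its groups did not overlap as deposited and overlapped after scaling, at 0.10. Pdcd6, a calcium sensor, differed by 0.24, or 0.12 without DMSO replicate 2. The cytoskeletal linkers had 7 of 8 past the filter, all 7 higher, with a median of 0.147. Macf1 and Ank2 differed by 0.15 and 0.29, and by 0.0051 and -0.01 without Re replicate 3. After scaling the medians of the 5 lists were 0.029, -0.027, -0.024, -0.001 and 0.034, in the order given. Groups were apart in 1 of 10 ligand and integrin genes, with Re higher, and in 0 of 7 linkers, as deposited and after scaling. In the rest of the complex they were apart in 0 of 4 as deposited and in 1 of 4, with Re lower, after scaling.

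The ferlins differed far more from each other than between groups. Myof, which encodes myoferlin, the close relative of dysferlin in myoblasts, was at 93.19 to 121.46 TPM in the Re table, against at most 3.96 TPM for Dysf. It averaged 103.5 ± 15.6 TPM in Re and 100.8 ± 4.31 TPM in DMSO (SD, n = 3). Trim72, whose product starts the repair patch in striated muscle, was at 0.05 TPM or less in all 8 libraries. Anxa2 and Anxa6, annexins of the repair cap, were at 705.6 ± 4.70 and 218.0 ± 2.34 TPM in Re and at 659.6 ± 73.3 and 210.8 ± 15.6 TPM in DMSO, with differences of 0.10 and 0.05, or -0.01 and -0.06 after scaling. Cav1 differed by 0.03, or -0.08 after scaling. As deposited, the groups overlapped for the myoblast markers: Myod1, Myf5, Des and Cdh15 differed by -0.08, 0.05, -0.05 and -0.07. After scaling they differed by -0.18, -0.06, -0.16 and -0.17. The 2 myotube genes past the filter, Acta1 and Actc1, differed by -0.14 and -0.13, or by -0.25 and -0.19 after scaling. After scaling the groups did not overlap, with Re lower, in 2 of 5 myoblast markers, Des among them, and in 2 of 2 myotube genes. Over all genes 4.87% did so. No marker passed the threshold in limma, and the cause was not tested.

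GBC and its DMSO control had 1 library each, so no test was made. The GBC library had higher values of the 4 members with a mean of 1 TPM or more. Utrn was at 10.96 TPM in the GBC library and 5.08 TPM in the DMSO library, a difference of 0.98. Dag1 was at 15.91 TPM in the GBC library and 10.09 TPM in the DMSO library, a difference of 0.61. Sgcb was at 2.81 TPM in the GBC library and 1.35 TPM in the DMSO library, and Dysf at 2.77 TPM in the GBC library and 1.39 TPM in the DMSO library, differences of 0.70 and 0.66. The median difference of these 4 was 0.677.

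Most genes were higher in that library: 88.8% of the 10989 at a mean of 1 TPM or more, with a median of 0.32. Both members at a mean of 5 TPM or more, Utrn and Dag1, stayed under a difference of 1, so 0 of 2 passed that size, where 5.21% of 6639 genes did. With a pseudocount of 0.5 or 0.1 Utrn passed it, at 1.04 and 1.09, where 6.09% and 6.84% of genes did. After median-of-ratios scaling the differences of Utrn, Dag1, Sgcb and Dysf were 0.69, 0.30, 0.48 and 0.44. For scale, libraries of 1 group in the Re table lay up to 0.76, 0.20, 0.34 and 0.75 apart for the same genes. The scaled difference was above that range for Dag1 and Sgcb and below it for Utrn and Dysf. These ranges are of deposited values, from other libraries at other levels. The share of all genes above their own range was not computed, so nothing is concluded from this.

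**Figure D4:**
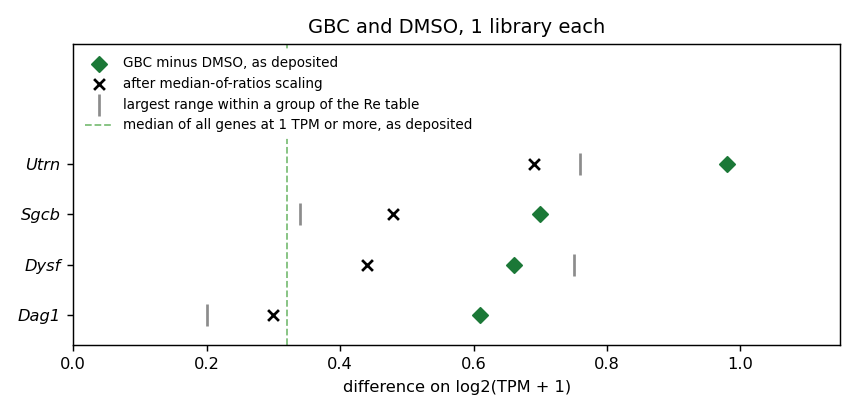
GBC minus DMSO (1 library each, horizontal axis, log2(TPM + 1) scale) for the 4 members with a mean of 1 TPM or more, as deposited (diamonds) and after median-of-ratios scaling (crosses), with the largest range within a group of 3 libraries in the Re table (grey ticks) and the median of all genes, 0.32 (dashed). Utrn has the largest difference, 0.98 as deposited, and also the widest range within a group, 0.76. The ranges are of deposited values.

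The other members were barely listed in the pair. Sgcd was at 0.36 TPM in the GBC library and 0.22 TPM in the DMSO library, Sspn at 0.26 and 0.19 TPM in the same order of libraries, and Sgca at 0 and 0.05 TPM. Sgce and Dmd were listed at 0 in both. Among the neighbouring genes, ligands and integrin had 8 of 8 genes higher in the GBC library, with a median of 0.904, and 4 of 6 past the size of 1. Lamb1, a laminin chain, was at 31.86 TPM in the GBC library and 11.95 TPM in the DMSO library, and Hspg2, which encodes perlecan, a ligand of dystroglycan, at 8.78 TPM in the GBC library and 3.47 TPM in the DMSO library. After median-of-ratios scaling 1 of the 6 was past the size, Lamb1 at 1.03, and Hspg2 was at 0.85. Cytoskeletal linkers had 7 of 7 higher, with a median of 0.787 and 3 of 6 past the size, Dst by 1.13 and Flnc, the muscle filamin, by 1.13, and after scaling 0 of 6, with both at 0.82. Repair partners had 19 of 23 higher, with a median of 0.286 and 3 of 22 past it. Anxa2 was at 261.26 TPM in the GBC library and 91.47 TPM in the DMSO library, and Vps4b, an ESCRT ATPase, at 15.23 TPM in the GBC library and 5.87 TPM in the DMSO library. After scaling 1 of 22 was past the size, Anxa2 at 1.18, and Vps4b was at 0.94. Over all genes 2.12% passed the size after scaling. Myof, Cav1 and Anxa6 differed by 0.77, 0.16 and -0.04, or by 0.44, -0.17 and -0.35 after scaling. Glycosylation enzymes had 15 of 16 higher, with a median of 0.356, with Dpm2 at 0.70. The rest of the complex had 3 of 3 higher, with a median of 0.177, and Dtnb at 0.60. Col1a1, a fibroblast marker, was 1.996 higher in the GBC library and Col3a1 0.96 higher, or 1.68 and 0.64 after scaling. They are the 2 largest differences of the fibroblast and mesenchymal list. Of its 6 genes at a mean of 1 TPM or more 5 were higher in the GBC library, where 88.8% of all genes were. Thy1 was lower, at 22.11 TPM against 23.75 TPM in the DMSO library. Past the size was 1 of 5, as deposited and after scaling. The part of such markers in the values of the members was not tested.

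Set against Dag1 in the same library, which removes the scaling, the members differed in how the 2 tables compared. Utrn had 0.689 TPM per TPM of Dag1 in the GBC library and 0.504 in its DMSO library, within the span of the Re table, 0.433 to 0.717 in Re libraries and 0.477 to 0.570 in DMSO libraries. Dysf had 0.174 in the GBC library and 0.138 in its DMSO library, above all 6 libraries of the Re table, which ran from 0.0849 to 0.0903 in Re and from 0.0647 to 0.124 in DMSO. Sgcb had 0.177 in the GBC library and 0.134 in its DMSO library, below 0.252 to 0.337 in Re libraries and 0.228 to 0.281 in DMSO libraries. Sgcd had 0.0226 in the GBC library and 0.0218 in its DMSO library, against 0.139 to 0.158 in Re libraries and 0.145 to 0.147 in DMSO libraries. Sspn had 0.0163 in the GBC library and 0.0188 in its DMSO library, against 0.182 to 0.213 in Re libraries and 0.187 to 0.208 in DMSO libraries. By this measure Sgcb, Sgcd and Sspn were lower in the 2 libraries of the GBC table than in the Re table, and Sgce was unlisted there. Myod1, Myf5 and Cdh15 are at 0 in the same 2 libraries. Whether these go together was not tested, and it cannot be told apart from other differences between the tables. The ratio to Dag1 was chosen after the values were seen, and the tables may differ in normalisation as well as in cells, so no test was made.

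**Figure D5:**
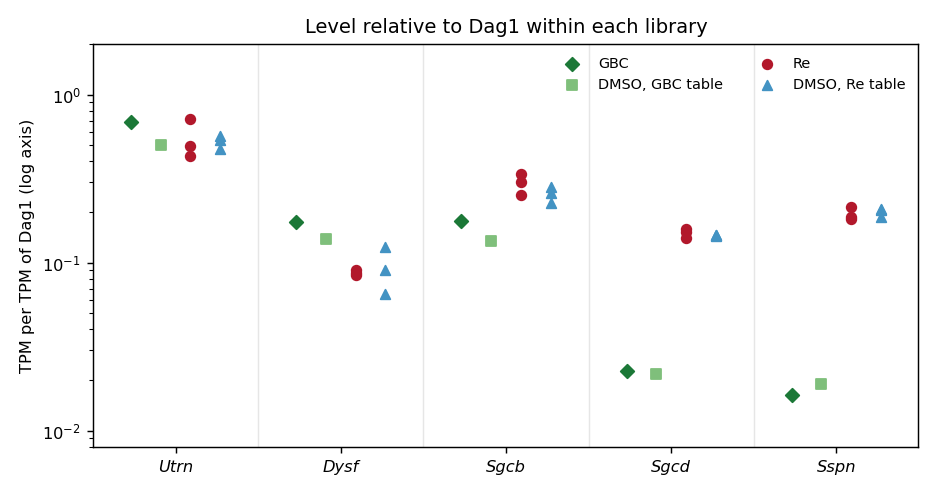
TPM per TPM of Dag1 in the same library (vertical log axis) for Utrn, Dysf, Sgcb, Sgcd and Sspn in the 8 libraries, 1 point per library, with GBC and its DMSO library at the left of each gene. Utrn lies within the same span in both tables, Dysf is higher in the GBC table, and Sgcd and Sspn are at 0.0163 to 0.0226 there, against 0.139 or more in the Re table.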

How the data were processed

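Per the file headers and names, the authors deposited log2(TPM + 1) per Ensembl gene, 1 column per library. STAR, RSEM and the builds GRCh38 and GRCm39 are listed in the submitters' processing notes, with no tool version; the settings were not stated there. Values were back-transformed to TPM for levels and ratios.

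Re and DMSO were compared with limma 3.58.1 in R 4.3.3 (lmFit, eBayes with trend, two-sided) on the deposited log2 values, over the 11967 genes whose mean TPM in the 6 libraries reached 1, with Benjamini-Hochberg adjustment over them and a threshold of 0.05; the step was tested on simulated data. GBC and DMSO were described by size. Median-of-ratios factors came from genes above 0 in each library with a mean of at least 5 TPM. Gene models were those of GENCODE M21 on GRCm38, matched by Ensembl ID, and their exon coordinates gave the exon lengths and the shared exon bases. Promoter windows are RefSeq's. Other steps used Python 3.11.15, scipy 1.17.1, pandas 2.3.3, numpy 2.4.6 and matplotlib 3.10.9.

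Members and lists were chosen with earlier results of these data known. Named beside the members were, from each list, the 2 genes with the smallest limma p for Re and the 2 largest differences at a mean of at least 5 TPM for GBC, and 13 genes fixed by name; some named genes are not reported here. Alternatives were pseudocounts of 0.1 and 0.5, TPM filters of 0.1, 5 and none, median-of-ratios, quantile and sum scaling, mitochondrial genes left out, robust limma variances, limma fitted without the trend, the replicate number as a block, and each library left out.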

Additional observations from a re-analysis of the deposited data

How the results depend on the processing

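Over the alternatives, 0 members passed the threshold in Re against DMSO in any, and the smallest adjusted p of a member was 0.355, from limma for Sgce without DMSO replicate 1. Sgce kept a difference above 0 throughout, 0.26 to 0.45, as did Sgcb, 0.10 to 0.28, and Sgca, 0.51 to 1.30. With 1 library left out, limma called 0 to 7 genes over all genes, where it called 0 with all 6. Leaving out Re replicate 1, 2 or 3 gave 3, 1 or 7 calls, and leaving out DMSO replicate 1, 2 or 3 gave 4, 6 or 0. Between 1 and 3 members had groups that did not overlap. Of the 7 at the filter of 1 TPM 3 did so when Re replicate 3 was left out and 2 when DMSO replicate 1 was. With fewer libraries groups come apart more easily in any gene. The share of all genes under these 2 settings is not given here, so nothing about the members is concluded from these counts. The 2 at a filter of 0.1 TPM, and the 2 with no filter, were Sgce and Sgca, since more genes enter. The median difference of the members stayed within 0.14 of 0.049, the typical SD within a group.

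Signs of small differences turned with the scaling. After median-of-ratios scaling the values were -0.059 for Utrn, -0.089 for Dag1, -0.043 for Sgcd, -0.059 for Myf5, -0.015 for Itga7, -0.084 for Myof, -0.011 for Anxa2, -0.063 for Anxa6 and -0.085 for Cav1. After quantile normalization they were -0.054 for Utrn, -0.080 for Dag1, -0.050 for Sgcd, -0.055 for Myf5, -0.0032 for Itga7, -0.060 for Myof, -0.043 for Anxa6 and -0.061 for Cav1. Without mitochondrially encoded genes and rescaled they were -0.040 for Utrn, -0.068 for Dag1, -0.026 for Sgcd, -0.038 for Myf5, -0.062 for Myof, -0.041 for Anxa6 and -0.063 for Cav1. At equal sums they were -0.016 for Utrn, -0.044 for Dag1, -0.0043 for Sgcd, -0.014 for Myf5, -0.038 for Myof, -0.016 for Anxa6 and -0.038 for Cav1.

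With 1 library left out in turn, the differences that took both signs ran as follows: Utrn -0.20 to 0.19, Dag1 -0.0251 to 0.077, Sgcd -0.0006 to 0.0867, Sspn -0.12 to 0.0514, Dysf -0.22 to 0.16, Ank2 -0.0133 to 0.48, Myod1 -0.19 to 0.0196, Acta1 -0.25 to 0.0294, Myof -0.0903 to 0.10, Anxa6 -0.005 to 0.10, Cav1 -0.0418 to 0.0813, Cdh15 -0.13 to 0.0425.

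In the GBC pair 346 genes passed the size of 1 as deposited, 522 with a filter of 1 TPM, 141 after median-of-ratios scaling and 208 at equal sums. Of the members 0 passed, and 1, Utrn, with a pseudocount of 0.1 or 0.5. The median of the 4 members was 0.677, and 0.975 with a pseudocount of 0.1 and 0.46 after median-of-ratios scaling. Over 659 values of 50 single-gene results under alternatives, 50 differences between Re and DMSO changed sign. The causes were not tested.

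The replicate numbers were not taken as pairs, and the labels' descriptions number the Re libraries otherwise. Deviations from the group means correlated across genes at 0.163, 0.077 and 0.017 for the same numbers. Re replicates 1 and 2 correlated best with the DMSO library of the same number, and Re replicate 3 with DMSO replicate 2, at 0.094. Deviations within a group of 3 sum to 0 and carry the scaling of each library, so these values cannot settle the pairing. With the replicate block 0 genes and 0 members were called, and Sgce had an adjusted p of 0.663 in limma. Depth, which TPM does not keep, limits what can be said of Dmd and Sgca.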

Other observations

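Among the 16 genes of the fixed lists with a mean between 0.1 and 1 TPM in the Re table, 5 had groups that did not overlap, 2 with Re higher and 3 with Re lower, against 11.3% and 1.6% of all 17171 genes at that filter. They were chosen after their values were seen. Of the 17171 genes, 11967 had a mean of 1 TPM or more, and of these 13.7% and 1.27% were apart in the same order. The shares among genes between 0.1 and 1 TPM alone were not computed, so the background is not matched in level. Beside Sgca and Fer1l6, the genes of the 5 with Re lower were Capn3, Sntb1 and Dcn. Capn3, the muscle calpain, was at 0.75, 0.72 and 0.67 TPM in Re libraries and at 0.97, 1.0 and 1.46 TPM in DMSO libraries, a difference of -0.32 (adjusted p = 0.743 in limma). Sntb1, which encodes a syntrophin that binds dystrophin, was at 0.13, 0.11 and 0.18 TPM in Re libraries and at 0.26, 0.40 and 0.43 TPM in DMSO libraries, a difference of -0.26. Dcn, which encodes the matrix proteoglycan decorin, was at 0.23, 0.13 and 0.08 TPM in Re libraries and at 0.29, 0.57 and 0.45 TPM in DMSO libraries, a difference of -0.32. After median-of-ratios scaling Sgca, Capn3, Sntb1 and Dcn still did not overlap and Fer1l6 did. Over all 17171 genes, 5.19% were then apart with Re higher and 4.37% with Re lower. No gene of this kind passed adjustment, and the reads behind such levels are unknown.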
